A study of Mus musculus with 6 samples.

Results

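The endothelial identity genes are a set of 10 genes that vascular endothelium uses to build and regulate the inner lining of a vessel: *Pecam1*, *Cdh5*, *Esam*, *Cldn5*, *Tie1*, *Eng*, *Vwf*, *Emcn*, *Egfl7* and *Erg*. They were found by symbol among the 55341 genes of the count table, all 10 were present, and all 10 were among the 16017 genes that passed the filter on low counts. The libraries came from whole aortas of 3 miRNA-26b-/- mice (M2626, M2627 and M2628) and 3 miRNA-26b+/+ mice (M2629, M2630 and M2631, named naive in the labels), 1 library per mouse. Both groups were 8 weeks old, fed chow, of the C57BL/6NCrl strain by their labels, and perfused with phosphate buffered saline before the aortic arch and thoracic aorta were removed. The miRNA-26b-/- line was made from 129/Sv embryonic stem cells and floxed at *Mir26b*, which lies in an intron of *Ctdsp1*. The allele was deleted with tamoxifen-induced CreERT2, and the Cre transgene was then bred out. The promoter that drives CreERT2 is not given in the sources used here. The targeted *Mir26b* hairpin received 20 counts in M2630 and 0 in each of the other 5 libraries, so these libraries of long RNA give no check of the genotype.

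Endothelial cells line every blood vessel as a single sheet. Neighbouring cells are held together by adhesion molecules of adherens and tight junctions, they carry receptors that read growth factors and flow, and they store von Willebrand factor in Weibel-Palade bodies for release after injury. The ETS transcription factor Erg maintains expression of many of these genes in adult endothelium. In the aorta this sheet is thin compared with the smooth muscle of the media, so a transcript made only by endothelium is diluted in RNA from the whole wall.

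One of the molecules removed in these mice, miRNA-26b-5p, is shown first, since the study asked what the loss of miRNA-26b does to the transcriptome. The paper states that the mice lack miRNA-26b-3p as well. Matches to the seed of miRNA-26b-3p were not searched for. Mature miRNA-26b-5p (mmu-miR-26b-5p) lies on the forward strand at chr1:74394324-74394344 and shares its seed with mmu-miR-26a-5p, which is made from other loci and was not targeted. The sequences are from RefSeq on GRCm38.p6, written 5′ to 3′, with the seed (bases 2 to 8) in capitals.
mmu-miR-26b-5p: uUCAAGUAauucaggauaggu
mmu-miR-26a-5p: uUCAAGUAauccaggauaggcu

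A match to bases 2 to 8 of this seed, TACTTGA in DNA letters, was present in 0 of the 10 longest annotated 3′ UTRs of the endothelial identity genes, whereas 9.67% of 21020 genes hold one. The shorter match ACTTGAA, which pairs with bases 2 to 7 and has an A after them, occurred once in *Pecam1*, once in *Esam* and once in *Eng*, and 14.07% of the same genes hold at least 1. The 3 sites are shown because they are the only matches of either kind in the set. They come from the GENCODE M21 transcripts on the sense strand, the capitals mark the matched letters, and the positions count from the first base after the stop codon.
Pecam1 3′ UTR, bases 555 to 561: aatggccagtcACTTGAAgacagacctca
Esam 3′ UTR, bases 466 to 472: tttaaaatctgACTTGAAattgatgtttt
Eng 3′ UTR, bases 890 to 896: atgggcgtccaACTTGAAtgcattgtcac

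A sequence match is a description of these letters and not a measured binding site. The longest 3′ UTRs of the 10 genes ran from 306 bases in *Egfl7* to 2240 bases in *Tie1*, against a median of 961 bases over all genes.

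Promoter windows of 300 bases around an annotated start were available from RefSeq for 6 of the genes (*Cldn5*, *Tie1*, *Eng*, *Emcn*, *Egfl7* and *Erg*). They were searched on both strands for the ETS core AGGAAG, for a second ETS form CCGGAA, for the SOX form ATTGTT and for the GATA form AGATAA. The first ETS form, AGGAAG or its complement, was found 2 times each in the windows of *Tie1*, *Eng* and *Emcn*, in 2 of 3 windows of *Egfl7*, in 1 of 3 windows of *Erg* and in 0 windows of *Cldn5*, while 35.35% of 32851 promoter windows of this length hold it. CCGGAA was in none of these windows (14.9% of all windows hold it), ATTGTT was in 1 window of *Emcn* and 1 of *Erg* (10.72%), and AGATAA was in 1 window of *Erg* (11.18%). The windows of *Cldn5*, *Tie1*, *Eng* and *Emcn*, the 4 genes with a single window, are printed to show windows with and without the first ETS form. Capitals mark AGGAAG or its complement CTTCCT, and each window reads 5′ to 3′ on the strand of its gene in GRCm38.p6.
Cldn5, forward strand, chr16:18776597-18776896: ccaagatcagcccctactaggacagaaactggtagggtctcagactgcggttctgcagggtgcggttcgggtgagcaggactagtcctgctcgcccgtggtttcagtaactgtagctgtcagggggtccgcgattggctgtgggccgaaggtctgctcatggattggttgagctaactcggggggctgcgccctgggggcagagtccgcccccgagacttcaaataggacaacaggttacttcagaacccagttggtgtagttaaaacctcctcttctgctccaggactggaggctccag
Tie1, reverse strand, chr4:118489800-118490099: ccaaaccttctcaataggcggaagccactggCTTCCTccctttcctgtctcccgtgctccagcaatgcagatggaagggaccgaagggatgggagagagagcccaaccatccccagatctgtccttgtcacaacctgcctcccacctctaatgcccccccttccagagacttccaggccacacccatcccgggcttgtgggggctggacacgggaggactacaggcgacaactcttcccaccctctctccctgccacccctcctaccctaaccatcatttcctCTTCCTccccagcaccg
Eng, forward strand, chr2:32646345-32646644: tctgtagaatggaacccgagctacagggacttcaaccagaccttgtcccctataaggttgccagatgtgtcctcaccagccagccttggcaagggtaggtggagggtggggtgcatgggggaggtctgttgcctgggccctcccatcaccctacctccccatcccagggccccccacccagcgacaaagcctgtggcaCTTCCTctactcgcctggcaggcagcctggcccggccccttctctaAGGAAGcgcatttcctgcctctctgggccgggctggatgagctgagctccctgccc
Emcn, forward strand, chr3:137340828-137341127: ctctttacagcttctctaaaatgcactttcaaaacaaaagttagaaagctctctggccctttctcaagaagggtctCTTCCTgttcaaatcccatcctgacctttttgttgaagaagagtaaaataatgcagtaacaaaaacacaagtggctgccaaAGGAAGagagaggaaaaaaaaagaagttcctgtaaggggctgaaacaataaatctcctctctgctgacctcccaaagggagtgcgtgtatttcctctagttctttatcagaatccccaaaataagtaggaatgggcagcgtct

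The libraries held 25706728 to 33345037 counts, and the endothelial identity genes took 16406, 23297 and 53932 of the counts in M2626, M2627 and M2628, and 41626, 50191 and 50186 of those in M2629, M2630 and M2631. Even the least abundant gene, *Emcn*, had at least 127 counts in every library. The labels call the samples endothelial cells, but the marker genes were those of a whole vessel wall. Smooth muscle genes summed to between 39240 and 50590 TPM, led by the contractile actin *Acta2* with a mean of 23800 TPM, whereas the 10 endothelial identity genes summed to between 411.8 and 1068 TPM. TPM, in which counts are divided by gene length and scaled to the same total in each library, is used here to compare levels between genes. CPM, the TMM-normalized count relative to library size, is used to compare 1 gene between libraries. In such whole-tissue libraries, fewer endothelial cells and less RNA per endothelial cell cannot be told apart.

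Per length, *Pecam1* was the most abundant of the 10 genes with 245 ± 127 TPM (mean ± SD, 6 libraries). It was followed by *Eng* at 128 ± 30.1 TPM and *Vwf* at 79.4 ± 48.5 TPM. *Erg*, *Cldn5* and *Cdh5* lay close to each other at 68.8 ± 14.8, 67.5 ± 21.1 and 67.4 ± 21.2 TPM. Then came *Esam* at 51.2 ± 11.6 TPM, *Tie1* at 36.4 ± 17.2 TPM and *Egfl7* at 32.0 ± 7.9 TPM. *Emcn* was lowest at 7.67 ± 4.19 TPM, and it was the only gene whose range over the 6 libraries, 2.75 to 11.6 TPM, did not overlap that of its neighbour in the order. *Eng* was above *Vwf* and *Esam* above *Tie1* in all 6 libraries, although their ranges overlapped. The order was not the same in every aorta. *Vwf* held rank 3 in M2628 and in the 3 miRNA-26b+/+ libraries and rank 8 in M2626 and M2627, and *Pecam1* held rank 1 in 5 libraries and rank 2, below *Eng*, in M2627.

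**Figure D1:**
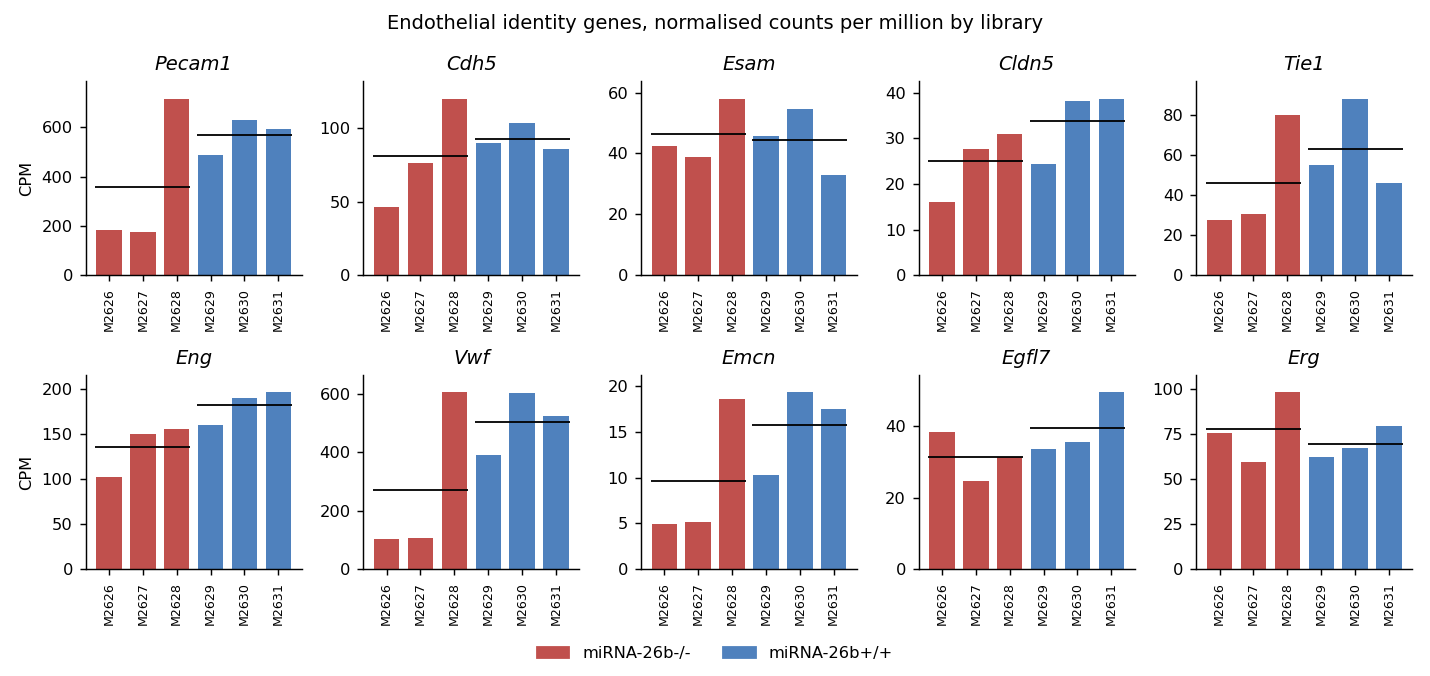
Normalised counts (CPM, vertical axis, starting at 0) of each endothelial identity gene in the 6 libraries (horizontal axis), with black lines at the group means of 3 libraries. Vwf and Pecam1 were low in M2626 and M2627 and high in M2628, and Eng was the only gene with all miRNA-26b-/- values below all miRNA-26b+/+ values.

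The comparison of the genotypes asked whether the aortas without miRNA-26b differed in these genes. Of the 10 genes, 8 had a log2 fold change below 0, with a median of -0.42 against 0.01 for all genes tested. At an unadjusted p under 0.05 in edgeR's quasi-likelihood test, 1 of the 10 genes, *Eng*, was lower in miRNA-26b-/- aortas, where 3.07% of all genes tested were called lower. None was higher at that level. After Benjamini-Hochberg adjustment over all genes 0 of the 10 were called, where 0.00624% of all genes tested were called. The p-values of this comparison rest on the spread between these 6 mice, which edgeR estimates with information shared across genes. For a single gene, the exact permutation test of 3 against 3 libraries cannot give a p below 0.1.

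The contacts between endothelial cells are built from 4 of these genes. *Pecam1* (ENSMUSG00000020717, chr11:106654217-106750628, reverse strand in GRCm38), which encodes the adhesion molecule CD31, had 185, 175 and 716 CPM in M2626, M2627 and M2628 and 488, 631 and 593 CPM in the miRNA-26b+/+ libraries. M2628 was the highest library of all 6 and M2626 and M2627 were below every other library, so the groups overlapped. Group means of 359 ± 310 CPM and 571 ± 74.3 CPM (SD over 3 mice) gave a log2 fold change of -0.67 (SE 0.382, edgeR adjusted p = 0.805). The SD among the 3 miRNA-26b-/- aortas was larger than the difference between the group means.

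*Cdh5* (ENSMUSG00000031871, chr8:104101625-104144511, forward strand), VE-cadherin of the adherens junction, had 46.2, 76.3 and 120 CPM in the miRNA-26b-/- libraries and 89.7, 103 and 85.7 CPM in the miRNA-26b+/+ libraries. Its order was the same as that of *Pecam1* in that M2626 and M2627 were the lowest libraries and M2628 the highest, but the range was narrower. Between genotypes the log2 fold change was -0.19 (SE 0.255, edgeR adjusted p = 0.941). *Esam* (ENSMUSG00000001946, chr9:37528078-37538319, forward strand), an immunoglobulin-type adhesion molecule found at tight junctions, had 42.4, 38.7 and 58.0 CPM against 45.7, 54.5 and 32.8 CPM. The lowest value of *Esam* was in a miRNA-26b+/+ aorta and the highest in a miRNA-26b-/- aorta. Its log2 fold change was 0.07 (SE 0.238, edgeR adjusted p = 0.988).

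*Cldn5* (ENSMUSG00000041378, chr16:18776847-18778262, forward strand), which encodes the tight junction protein claudin-5, had 16.1, 27.8 and 31.0 CPM in miRNA-26b-/- aortas and 24.4, 38.2 and 38.7 CPM in miRNA-26b+/+ aortas. Here M2626 alone was lowest, and M2629, a miRNA-26b+/+ library, was second. A log2 fold change of -0.42 was fitted (SE 0.283, edgeR adjusted p = 0.857).

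Both receptors of the set had lower means in miRNA-26b-/- aortas, with overlap of the groups for *Tie1* and none for *Eng*. *Tie1* (ENSMUSG00000033191, chr4:118471191-118490061, reverse strand), a receptor tyrosine kinase that works with the angiopoietin receptor Tie2, had 27.7, 30.9 and 80.0 CPM against 55.4, 88.4 and 46.2 CPM. M2628 was second only to M2630, while M2626 and M2627 were lowest. The fitted log2 fold change was -0.45 (SE 0.345, edgeR adjusted p = 0.876).

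*Eng* (ENSMUSG00000026814, chr2:32646595-32682669, forward strand), the co-receptor endoglin through which BMP9 signals with ALK1, had 102, 150 and 155 CPM in miRNA-26b-/- aortas and 160, 189 and 196 CPM in miRNA-26b+/+ aortas. It was the 1 gene of the 10 whose groups did not overlap, where 5.88% of all genes tested had every miRNA-26b-/- value below every miRNA-26b+/+ value. The gap was small, from 155 CPM in M2628 to 160 CPM in M2629. The means were 136 ± 29.4 and 182 ± 19.1 CPM, a log2 fold change of -0.41 (SE 0.176, unadjusted p = 0.0324, edgeR adjusted p = 0.741, exact permutation p = 0.1). The count of genes with an unadjusted p under 0.05 fell from 1 to 0 when M2626, M2630 or M2631 was left out, and also when M2627 and M2630 were left out together. The exons of *Eng* share 61 bases, 1.51% of its exon length, with *Fpgs* on the opposite strand, and reads there were counted for both genes.

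Secreted and surface products are encoded by 3 of the genes. *Vwf* (ENSMUSG00000001930, chr6:125546774-125686679, forward strand), whose product captures platelets at injured vessel wall, had 103, 107 and 604 CPM in M2626, M2627 and M2628 and 390, 602 and 522 CPM in the miRNA-26b+/+ libraries. M2628 held as much *Vwf* as the highest miRNA-26b+/+ library. Group means of 271 ± 288 and 504.5 ± 107 CPM gave a log2 fold change of -0.90 (SE 0.472, edgeR adjusted p = 0.787).

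*Emcn* (ENSMUSG00000054690, chr3:137341067-137432185, forward strand), the sialomucin endomucin of the endothelial surface coat, had 4.96, 5.16 and 18.7 CPM against 10.3, 19.3 and 17.5 CPM. As for *Vwf*, M2626 and M2627 were nearly equal and lowest. In M2628, *Emcn* lay within the miRNA-26b+/+ range. Its log2 fold change was -0.72 (SE 0.473, edgeR adjusted p = 0.853). *Egfl7* (ENSMUSG00000026921, chr2:26580014-26593120, forward strand), a secreted protein of the endothelial matrix whose gene hosts miR-126, had 38.4, 24.6 and 31.2 CPM against 33.5, 35.4 and 49.4 CPM. Unlike most of the set, its second highest value was in M2626. The fitted log2 fold change was -0.34 (SE 0.247, edgeR adjusted p = 0.859). Part of *Egfl7* is shared with other genes, 264 of its exon bases (7.37%) with *Gm20532*, 73 with *Mir126a*, 58 with *Mir126b* and 64 with *Agpat2*. *Agpat2*, an enzyme of lipid synthesis on the opposite strand, had 1066 to 6234 counts per library, so the *Egfl7* counts can include reads from it.

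*Erg* (ENSMUSG00000040732, chr16:95359169-95586593, reverse strand), the only transcription factor among the 10, had 75.4, 59.3 and 98.0 CPM in miRNA-26b-/- aortas and 62.2, 67.2 and 79.5 CPM in miRNA-26b+/+ aortas. Its highest and its lowest value were both in miRNA-26b-/- aortas. The log2 fold change was 0.15 (SE 0.205, edgeR adjusted p = 0.946), one of 2 in the set above 0 together with *Esam*.

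For all 10 genes the range within the 3 miRNA-26b-/- aortas was wider than the difference between the group means. The highest library had 5.85 times the CPM of the lowest for *Vwf*, 4.1 times for *Pecam1*, 3.89 times for *Emcn* and 3.18 times for *Tie1*. For *Cdh5*, *Cldn5*, *Egfl7*, *Eng*, *Esam* and *Erg* these ratios were 2.6, 2.4, 2.01, 1.92, 1.77 and 1.65. Over the 9034 genes with at least the mean level of *Emcn* and counts in every library the median ratio was 1.66, so *Erg* and *Esam* varied about as much as a typical gene. A larger ratio than that of *Vwf* was found in 0.886% of these genes, and larger than that of *Pecam1* in 2.37%.

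M2626 and M2627 were the 2 lowest of the 6 libraries for 6 of the 10 genes (*Pecam1*, *Cdh5*, *Tie1*, *Eng*, *Vwf* and *Emcn*). Over all genes tested, 9.95% had these libraries lowest. This ordering was seen in the same libraries that it describes and was not tested. The summed CPM of the 10 genes was 641.1, 694.5 and 1912 in M2626, M2627 and M2628, and 1359, 1829 and 1661 in M2629, M2630 and M2631. M2628 therefore had the highest sum of all libraries, and M2626 and M2627 the lowest. The group means were 1083 ± 719.1 and 1616 ± 238.3 CPM, and the log2 ratio of the means was -0.58. Without *Vwf* and *Pecam1*, the sum of the other 8 genes ran from 353.3 CPM in M2626 to 595.6 CPM in M2630, with a log2 ratio of -0.26.

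**Figure D2:**
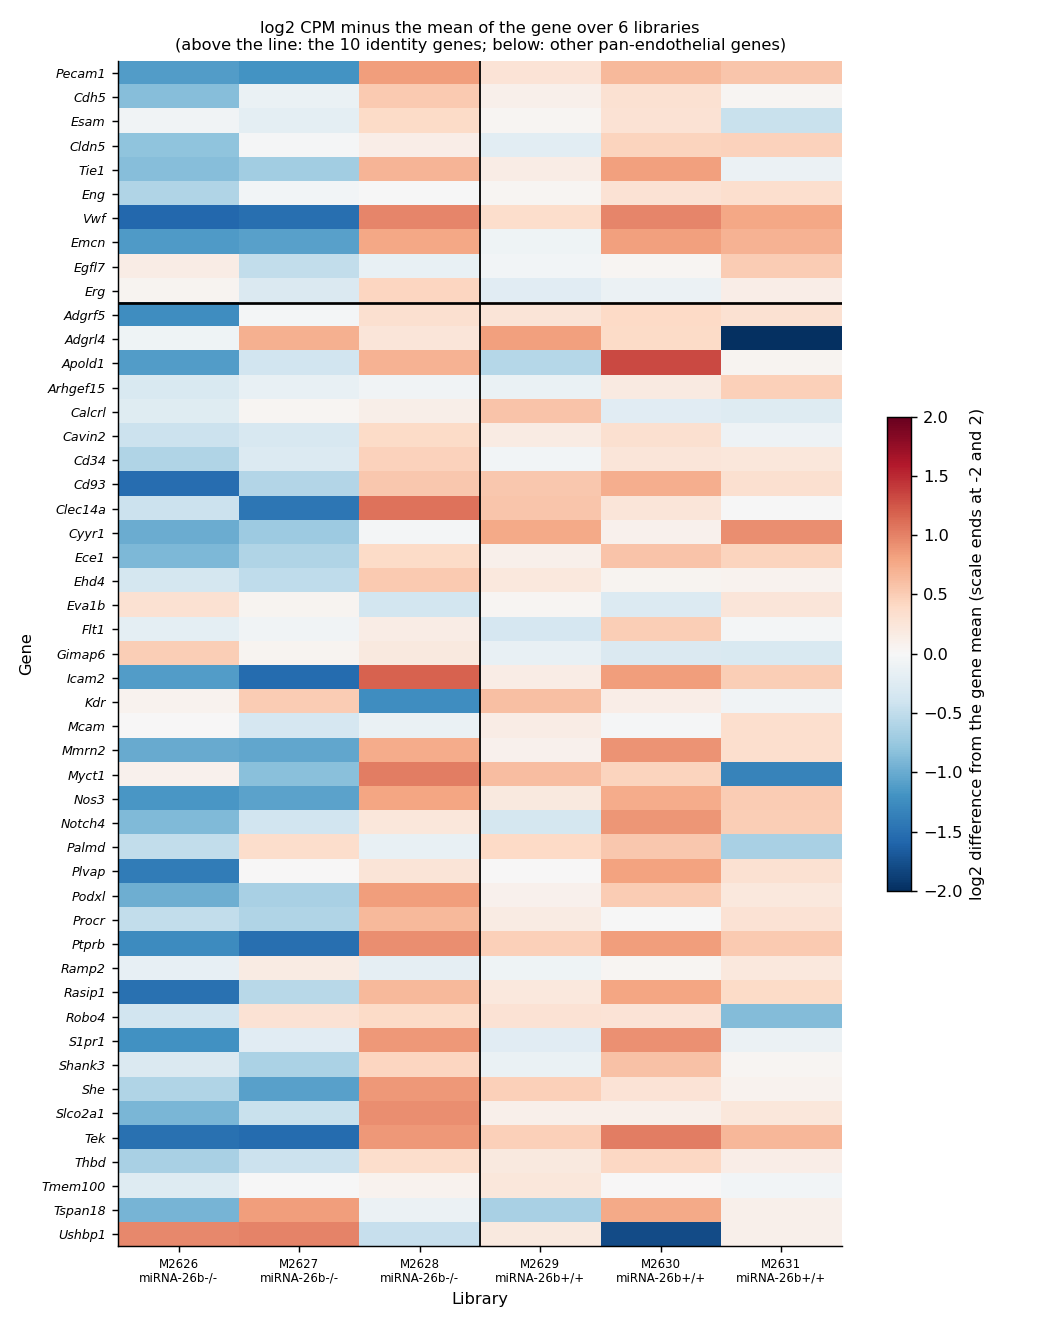
log2 CPM of each gene minus its mean over the 6 libraries (colour, with ends at -2 and 2), for the 10 endothelial identity genes above the line and 39 other pan-endothelial genes below it, with genes as rows and libraries as columns. Blue in M2626 and M2627 and red in M2628 and M2630 recur for Pecam1, Tie1, Vwf and Emcn, and are weaker or absent for Esam, Egfl7 and Erg.

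The genes did not all follow this ordering to the same degree. Pearson's r between the log2 CPM of a gene and the mean of the other 9 over the 6 libraries was 0.989 for *Emcn*, 0.986 for *Vwf*, 0.98 for *Pecam1* and 0.908 for *Tie1*. It was 0.845 for *Cdh5*, 0.758 for *Eng* and 0.752 for *Cldn5*. For *Erg*, *Esam* and *Egfl7* it was 0.41, 0.388 and 0.264. These coefficients describe 6 shared libraries, of which M2626 and M2627 lie at one end, and carry no test.

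The make-up of the endothelial identity counts showed the same split. *Vwf* made up 16.1% and 15.4% of the summed counts of the 10 genes in M2626 and M2627, 31.6% in M2628, and 28.7%, 32.9% and 31.4% in the miRNA-26b+/+ libraries. *Vwf* and *Pecam1* together were 44.9% and 40.6% in M2626 and M2627 and between 64.6% and 69.0% in the other 4 libraries. The share of *Vwf* overlapped between the genotypes (exact permutation test, two-sided, p = 0.3), and the difference of means was -9.97 percentage points, or -15.2 without M2628.

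The share of *Erg* was instead largest in M2626 and M2627, as were those of *Cdh5*, *Esam*, *Cldn5*, *Eng* and *Egfl7*. The shares of a library have a fixed total, so smaller shares of *Vwf* and *Pecam1* leave larger shares for the others. *Erg* made up 11.8%, 8.54% and 5.12% of the counts in M2626, M2627 and M2628 and 4.58%, 3.68% and 4.79% in M2629, M2630 and M2631. It was the only gene whose shares did not overlap between the genotypes, with means of 8.48% ± 3.32 and 4.35% ± 0.59 (exact permutation test, two-sided, p = 0.1, the smallest these 6 libraries can give). The difference of 4.13 percentage points fell to 2.49 without M2626 and ranged up to 5.81, without M2628, over the 6 libraries left out in turn. The *Erg* counts were also set against the summed counts of the other pan-endothelial genes, and the difference was then 0.812 percentage points. The largest part of that sum was *Mcam*, with a mean of 1100 TPM over the 6 libraries. *Mcam* had 1130, 894 and 1030 CPM in M2626, M2627 and M2628 and 1240, 1100 and 1420 CPM in M2629, M2630 and M2631. It did not follow the ordering of *Vwf* and *Pecam1*, and the shares were not recomputed without it. On that scale *Erg* stood at 3.0%, 2.36% and 2.37% against 1.67%, 1.64% and 1.99%, without overlap (exact permutation test, two-sided, p = 0.1). *Esam* did not overlap on that scale either (1.69%, 1.54% and 1.4% against 1.23%, 1.33% and 0.822%), and *Eng* had the same mean of 4.6% in both groups. The summed TPM of the other pan-endothelial genes was itself lowest in M2626 and M2627, at 1982 and 2019 against 3033 to 3279 in the other libraries. This second denominator is therefore no independent check of the *Erg* share, and the CPM of *Erg* overlapped between the genotypes. The shares of the other 9 genes had exact permutation p-values between 0.2 and 0.7, from 10 shares computed in all.

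**Figure D3:**
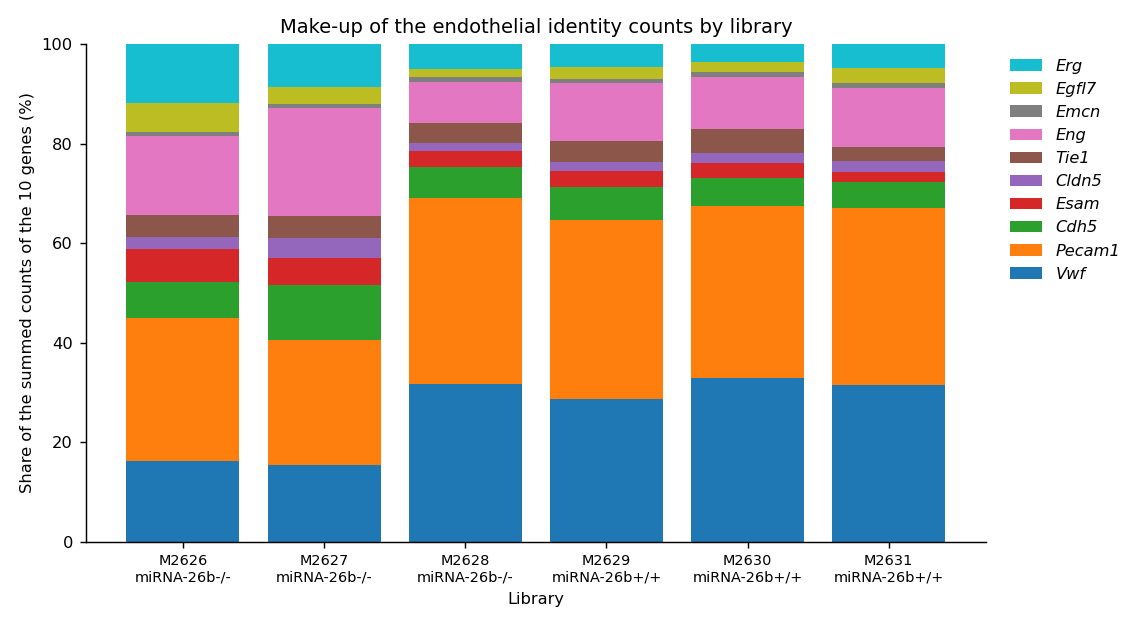
Share of each endothelial identity gene in the summed counts of the 10 genes (vertical axis, percent) in each of the 6 libraries (horizontal axis). Vwf and Pecam1 take 44.9% and 40.6% in M2626 and M2627 and at least 64.6% in the others. The share of Erg is largest in M2626 at 11.8%, and those of Esam and Egfl7 are largest there too.

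Of the 6 libraries left out in turn, M2628 changed the number of called genes most. Without it, 6 of the 10 genes were lower in the remaining miRNA-26b-/- aortas at an unadjusted p under 0.05, where 5.77% of all genes were called lower in that fit. After adjustment 2 of the 10 were called, where 0.428% of all genes were called lower. These were *Vwf*, with a log2 fold change of -2.26 (SE 0.188, edgeR adjusted p = 2.28e-05), and *Pecam1*, with -1.67 (SE 0.156, edgeR adjusted p = 4.18e-05). *Emcn* stood at -1.62 (edgeR adjusted p = 0.179), *Tie1* at -1.10 (0.117), *Cdh5* at -0.58 (0.31) and *Eng* at -0.52 (0.282), all edgeR adjusted p-values. The values of *Erg* and *Esam* moved below 0, to -0.06 and -0.13. The median log2 fold change of the 10 genes was -0.58 in that fit. With M2628 included no endothelial identity gene was called after adjustment, and nothing in the labels sets M2628 apart from M2626 and M2627.

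**Figure D4:**
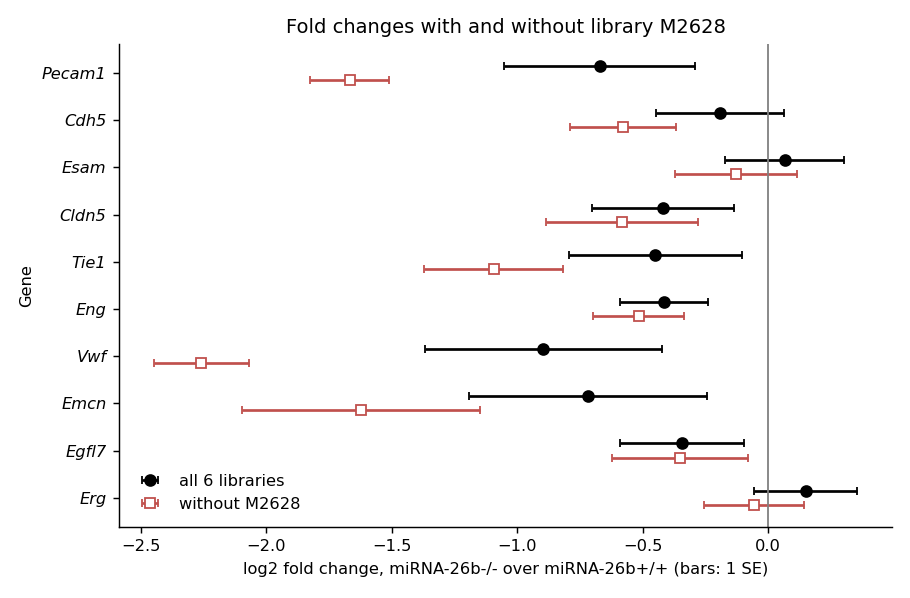
log2 fold change of miRNA-26b-/- over miRNA-26b+/+ aortas (horizontal axis, bars of 1 SE) for each endothelial identity gene, fitted with all 6 libraries (black circles) and without M2628 (open squares). Vwf moves from -0.90 to -2.26 and Pecam1 from -0.67 to -1.67, while Egfl7 stays at about the same value.

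Other cell types differed between the aortas at the same time, and their part in these results was not tested. The fibroblast list summed to 4512, 5439 and 9453 TPM in M2626, M2627 and M2628 and to 5976, 5446 and 6798 TPM in the miRNA-26b+/+ libraries. M2626 and M2627 were the 2 lowest libraries and M2628 the highest there as well, although M2627 was nearly level with M2630. The haematopoietic list had the same order at its ends, with 638.5 TPM in M2626, 726.3 TPM in M2627 and 1760 TPM in M2628, and 10 of its 11 genes reached 1 CPM in at least 1 library. M2626 and M2627 were the 2 lowest libraries for 5 of 9 tested genes in each of these lists, beside 6 of the 10 identity genes. Smooth muscle varied less, with its lowest sum in M2628 at 39240 TPM. Per 1000 TPM of smooth muscle genes, the endothelial identity genes stood at 9.29, 11.94 and 27.21 TPM in M2626, M2627 and M2628 and at 18.72, 23.8 and 18.78 TPM in M2629, M2630 and M2631, so the same 2 libraries were lowest on this scale.

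Platelets also carry *Vwf* and *Pecam1*. The platelet and megakaryocyte list summed to 97.36, 76.28 and 139.0 TPM in miRNA-26b-/- aortas and to 88.36, 74.63 and 88.77 TPM in miRNA-26b+/+ aortas, and 4 of its 10 genes stayed below 1 CPM in every library. *Pf4*, the most abundant of them, had 9.93, 7.07 and 22.4 CPM in M2626, M2627 and M2628 and 11.4, 6.67 and 10.3 CPM in M2629, M2630 and M2631. Its highest value was in M2628, as for *Vwf*, and its lowest in M2630, where *Vwf* was high. *Itga2b* had 2.23, 0.656 and 0.886 CPM against 2.28, 2.55 and 3.87 CPM. *Ppbp* had 0.977, 0.0 and 0.567 CPM against 0.0, 1.13 and 3.44 CPM, so neither was highest in M2628. A part of platelets in the *Vwf* and *Pecam1* counts was not tested.

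Genes of neighbouring tissue were uneven too. Adipocyte genes summed to between 1396 TPM in M2631 and 5687 TPM in M2627, and heart muscle genes to 23.64, 436.8 and 26.11 TPM against 94.28, 379.4 and 27.19 TPM, both highest in M2627 and M2630. The endothelial identity sum was low in M2627 at 694.5 CPM and high in M2630 at 1829 CPM. With M2627 and M2630 left out together, 0 of the 10 genes had an unadjusted p under 0.05 and the log2 ratio of the summed CPM was -0.24. Schwann cell genes were higher in miRNA-26b-/- aortas for 7 of 7 genes tested, at an unadjusted p under 0.05, where 3.4% of all genes were called higher, and their sums did not overlap (430.0 to 601.4 against 291.7 to 380.9 TPM). Skeletal muscle genes were higher for 5 of 6 genes tested by the same rule, and their sums of 48.65, 135.8 and 24.24 TPM in M2626, M2627 and M2628 did not overlap those of 10.78, 13.09 and 4.368 TPM in the miRNA-26b+/+ libraries. M2626 and M2627 had the highest sums of the Schwann cell and skeletal muscle lists and the lowest endothelial identity sums. Of 6 tested sympathetic neuron genes 3 were higher by that rule, beside the 3.4% of all genes. The sum of this list was 271.1 TPM in M2627, 51.57 TPM in M2630 and between 7.607 and 17.98 TPM in the other 4 libraries.

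**Figure D5:**
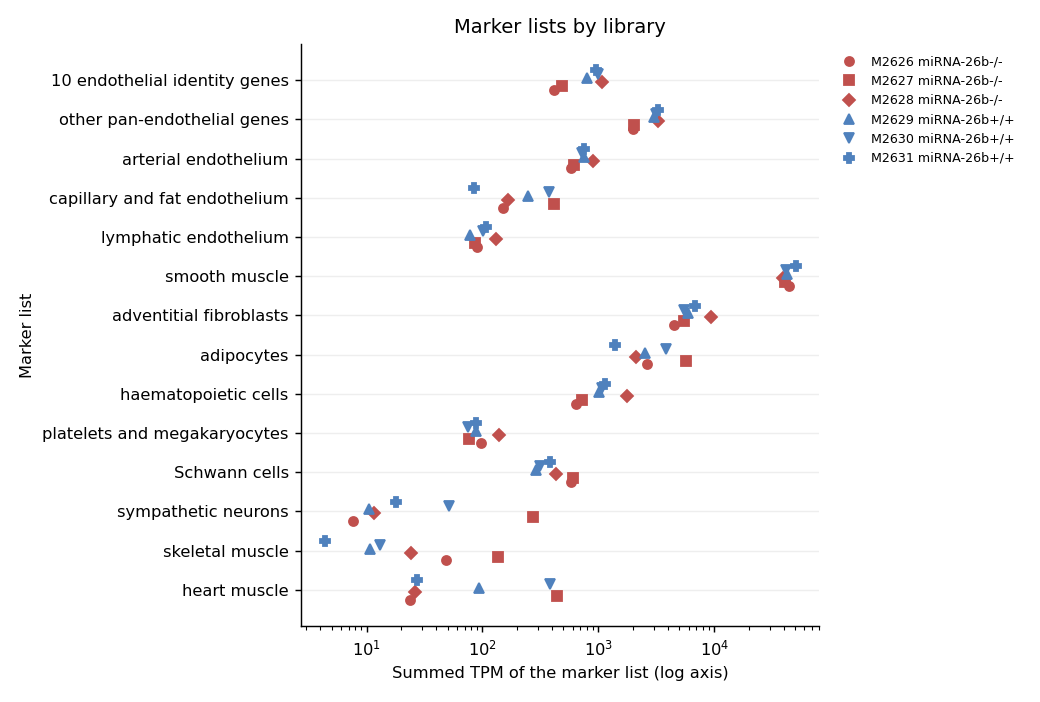
Summed TPM of marker lists (horizontal axis, log scale) in each library, with miRNA-26b-/- libraries in red, miRNA-26b+/+ libraries in blue and 1 symbol per library. The endothelial identity genes sum to 411.8 to 1068 TPM and smooth muscle genes to 39240 to 50590 TPM, and M2628 is highest for the identity, fibroblast and haematopoietic lists.

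Among 40 other pan-endothelial genes, 39 were tested. Of these, 34 had a log2 fold change below 0, with a median of -0.28, 0 were higher and 4 were lower at an unadjusted p under 0.05 (*Tek*, *Ece1*, *Cd93* and *Mcam*), where 3.07% of all genes were called lower, and 0 were called after adjustment. *Ece1*, which activates endothelin, had 99.1, 121 and 240 CPM against 197, 274 and 252 CPM, a log2 fold change of -0.65 (edgeR adjusted p = 0.736). *Tek*, the receptor Tie2 with which Tie1 pairs, had 22.8, 22.1 and 116 CPM against 89.0, 130 and 101 CPM. As for *Tie1*, M2626 and M2627 were lowest and M2630 highest, and the range of *Tek* was wider. M2626 and M2627 were the lowest libraries for 24 of the 39, against the 9.95% given above. Without M2628, 22 of the 39 were lower at an unadjusted p under 0.05, where 5.77% of all genes were called lower.

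The gene most like the set over the 6 libraries, among 9752 genes with a mean of at least 10 CPM, was *Nos3*, the endothelial nitric oxide synthase, with a Pearson's r of 0.997 to the mean of the 10 identity genes. *Nos3* had 23.6, 25.2 and 91.7 CPM in M2626, M2627 and M2628 and 60.8, 89.1 and 75.3 CPM in M2629, M2630 and M2631. The next were *Stab1* (r of 0.992), *Sipa1* (0.991), *Mmrn2* (0.99), *Stt3a* (0.989), *Ace* (0.988), *Hs3st1* (0.987), *Rnf157* (0.987), *Kdm3b* (0.986) and *Krt80* (0.986). Of 33 other pan-endothelial genes among these candidates, 10 were in the 100 most alike. Of the genes named in this paragraph, the steepest was *Hs3st1*, from 1.52 CPM in M2626 to 19.7 CPM in M2628. It encodes an enzyme of heparan sulfate synthesis and is not on the pan-endothelial list.

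The partners of the identity genes in their pathways had median log2 fold changes nearer to 0 than the -0.42 of the set. These lists were not limited to genes made mainly by endothelium, so in whole aorta their medians do not describe endothelium alone. Of 22 tested partners of the junction molecules *Pecam1*, *Cdh5*, *Esam* and *Cldn5*, 1 was higher (*Nectin2*) and 2 were lower (*Magi1* and *Ocln*) at an unadjusted p under 0.05. Of all genes tested, 3.4% were called higher and 3.07% lower. *Magi1*, a scaffold of cell junctions, had 11.1, 16.8 and 18.2 CPM against 26.7, 25.0 and 31.2 CPM, without overlap. For *Magi1* the log2 fold change was -0.83 (edgeR adjusted p = 0.736), and the median of the partners was -0.08.

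Beside *Eng*, the 16 tested genes of its signalling axis held 1 higher and 1 lower gene at an unadjusted p under 0.05, near the 3.4% and 3.07% of all genes tested called higher and lower. These were *Smad6* and *Smad7*, which encode inhibitory SMADs. *Smad6* had 78.1, 107 and 66.9 CPM against 65.4, 53.7 and 50.6 CPM, and *Smad7* had 34.5, 42.5 and 36.6 CPM against 66.0, 42.7 and 66.8 CPM. The groups did not overlap for either gene, in opposite directions, with log2 fold changes of 0.58 and -0.62 (edgeR adjusted p = 0.736 for both). *Acvrl1*, which encodes the ALK1 receptor itself, had a log2 fold change of -0.17 (edgeR adjusted p = 0.939).

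Of 18 tested genes that act with *Vwf* in Weibel-Palade bodies, 1 was lower at an unadjusted p under 0.05, beside 3.07% of all genes. This was *Myrip*, which tethers these granules to actin. *Myrip* had 6.06, 2.06 and 15.5 CPM against 20.2, 25.0 and 21.6 CPM (log2 fold change -1.54, edgeR adjusted p = 0.734), and unlike *Vwf* it was lower in M2628 than in every miRNA-26b+/+ library. Beside *Erg*, 3 of 27 tested ETS, SOX, KLF, GATA and FOX regulators were lower (*Sox18*, *Tal1* and *Epas1*) and 0 were higher. By the same rule, 3.07% of all genes tested were called lower and 3.4% higher. *Sox18*, a SOX factor of vessel development, had 6.33, 12.5 and 25.2 CPM against 27.4, 42.4 and 40.6 CPM, and *Tal1* had 4.61, 1.28 and 4.11 CPM against 7.80, 12.3 and 9.86 CPM. Their log2 fold changes were -1.31 and -1.64 (edgeR adjusted p = 0.731 and 0.736), against 0.15 for *Erg*.

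Lists of single vascular beds gave no common direction. Arterial endothelium had 0 of 11 genes called at an unadjusted p under 0.05, venous endothelium 1 of 6 (*Vcam1*, lower), capillary and fat endothelium 0 of 10, lymphatic endothelium 1 of 7 (*Reln*, higher) and endocardium 0 of 5. Over all genes tested, 3.4% were called higher and 3.07% lower. M2626 and M2627 were the 2 lowest libraries for 3 of the 11 arterial genes, where 9.95% of all genes tested had this order. *Gja5*, the arterial connexin 40, was among these, from its lowest value of 22.1 CPM in M2627 to its highest of 113 CPM in M2628. It had 84.9, 98.4 and 105 CPM in the miRNA-26b+/+ libraries. *Mecom*, of the same list, was instead lowest in M2628 at 20.9 CPM. *Cd36*, the most abundant capillary and fat gene, had 101, 251 and 112 CPM against 167, 245 and 55.2 CPM, high in M2627 and M2630 like the adipocyte genes and unlike *Vwf* or *Pecam1*.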

How the data were processed

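Total RNA of whole aortic arch and thoracic aorta was sequenced (TruSeq, 6 libraries). The authors used STAR for alignment to GRCm38 and deposited raw counts per gene name from featureCounts 1.6.4, unstranded, in which a read over several genes was counted for each. The file header names the GENCODE M21 annotation, whereas the methods name M23. A second deposited table of log2 CPM, fold changes and p-values was not used. Genotypes were taken from the labels.

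Genes were kept if their counts summed to 2 or more and if 2 or more libraries exceeded 1 CPM. Counts were normalized by TMM and compared by edgeR 4.0.16 (quasi-likelihood test, prior count 0.125, R 4.3.3), with Benjamini-Hochberg adjustment over all genes tested. The procedure was tested on simulated counts. TPM used the gene lengths of the count table. Exact permutation tests (scipy 1.17.1) were two-sided. Reads carried no molecular identifiers, so counts are not counts of molecules. Totals were 25706728 to 33345037 counts per library.

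The genes and lists were chosen with earlier results of these data known. Named genes were the 10 identity genes, the 2 genes of each list with the smallest unadjusted p, the most abundant gene of the lists of other cell types and vascular beds, the 10 genes most correlated with the set, and genes sharing exons with it. *Tek*, *Mcam*, *Nectin2*, *Epas1* and *Acvrl1* were named after their values were seen. Alternatives were the normalization, the test (DESeq2 1.42.0, limma 3.58.1 voom, likelihood ratio, earlier quasi-likelihood, robust shrinkage), the filter, leaving out libraries and, for the shares, the summed counts of the other pan-endothelial genes as denominator.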

Additional observations from a re-analysis of the deposited data

How the results depend on the processing

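The call of 0 identity genes after adjustment held under every alternative other than leaving out M2628, which gave 2 (range over single libraries left out 0 to 2). The number at an unadjusted p under 0.05 was 3 with limma voom, 0 without M2627 and M2630 together and 0 to 6 with single libraries left out, against 1. The number whose groups did not overlap was 1 to 6 with single libraries left out, against 1 with all 6 libraries. It was 2 without M2626 or M2629. The 6 came without M2628 and were the 6 genes with M2626 and M2627 lowest. With all 6 libraries, 5.88% of all genes tested were lower without overlap. That share was not computed with libraries left out, and 2 against 3 libraries separate more easily than 3 against 3. The log2 ratio of summed CPM ran from -1.27 without M2628 to -0.31 without M2626 over single libraries left out. It was -0.24 without M2627 and M2630 together. Over the other endothelial and pathway lists, whose numbers of tested genes are given above, 15 genes had an unadjusted p under 0.05. Over all genes tested, 3.4% were called higher and 3.07% lower in that fit. The 15 became 25 with limma voom, 6 without M2627 and M2630 together and 8 to 51 with single libraries left out. The highest was without M2628, where the background rose too, to 788 genes called higher and 904 lower of 15654. With single libraries left out, the log2 fold change of *Cdh5* ran from -0.58 to 0.07 (above 0 without M2626), that of *Esam* from -0.13 to 0.24 (below 0 without M2628 and, at -0.12, without M2631) and that of *Erg* from -0.057 to 0.32 (below 0 without M2628). *Tie1* turned to 0.10 without M2627 and M2630 together. *Pecam1*, *Cldn5*, *Eng*, *Vwf*, *Emcn* and *Egfl7* kept their direction in all 17 alternatives. The causes were not tested. Leaving out a library leaves 2 samples in 1 group. No paired analysis was possible because the labels carry no replicate numbers that the genotypes share.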
